A study of Mus musculus with 16 samples.

Results

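The 9 secreted-ligand genes that mark classes of enteric neurons, Npy, Gal, Sst, Grp, Nmu, Cartpt, Cck, Nxph2 and Ucn3, were followed by name through a table of 56748 genes, which makes 9 genes of 56748. Gut neurons are sorted into sensory, interneuron and motor classes partly by the peptides they store, so that each of these genes is made by only some neurons. Of these, 8 encode neuropeptides, which are cut out of precursor proteins, stored in dense-core vesicles and released onto receptors of neighbouring neurons, muscle or epithelium, and Nxph2 encodes neurexophilin 2, a secreted ligand of neurexins.

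RNA came from the longitudinal muscle with its attached myenteric plexus (LMMP), microdissected from the colon of mice 2 to 4 weeks of age, males and females. HSCR mice were Ednrb-/-, homozygous for the targeted allele Ednrb tm1Ywa on a hybrid C57BL6/J-129Sv background, and WT mice were Ednrb+/+ littermates. The allele disrupts the endothelin B receptor in the whole animal, and enteric neurons then fail to reach the distal colon, which is the defect of Hirschsprung disease. The 16 libraries formed 4 groups of 4, namely WT proximal, HSCR proximal, WT distal and HSCR distal colon. The 8 distal libraries carry a proximal tissue entry in their labels and were taken as distal from their titles.

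In the labels' tissue the neurons are a minority beside muscle, so the 16 libraries were first checked with marker genes, as the mean log2 CPM (read counts scaled by TMM to 1 common library size) over each list. The 19 pan-neuronal genes (such as Elavl4, Uchl1 and Prph) averaged between 4.81 and 7.36 in the WT proximal libraries and 2.06, 1.75, 5.64 and 5.59 in HSCR proximal libraries 1 to 4. Distally they averaged 1.85, 3.96, 6.61 and 6.11 in the WT libraries and 5.63, 2.06, 0.70 and -0.52 in the HSCR libraries. The library labelled HSCR distal 1 thus held as much neuronal RNA as HSCR proximal 3 and 4, and WT distal 1 held little. Hoxd13, a homeobox gene of the hindmost gut, was at 112 to 201 CPM in WT distal and at 0.904 to 23.9 in WT proximal libraries. It stood at 125 CPM in the library labelled HSCR proximal 1 and at 0.629 in the library labelled HSCR distal 1, each outside the WT range of its labelled segment, and at 14.1 in HSCR distal 4. Some results for the secreted-ligand genes are therefore also given without the library labelled HSCR proximal 1 or HSCR distal 1. Others, such as Sst distally and Grp and Nmu proximally, are given only with these libraries in. The same holds for the receptor, peptide processing and cell-type lists. HSCR distal 4, also below the WT distal range of Hoxd13, was kept in these checks. Reads of Ednrb itself remained in the HSCR libraries, and it was at 33.9 to 67.7 CPM in WT proximal and 7.85 to 36.3 in HSCR proximal libraries, and at 97.0 CPM, the highest of all, in the library labelled HSCR distal 1. HSCR proximal 2 stood apart in cell content, with an epithelial list mean of 9.56 against 6.99 or less in the other proximal libraries and a smooth muscle list mean of 7.10 against 9.83 to 11.45 in the other 15 libraries.

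The promoters of Sst and Cartpt are shown because Sst had no overlap between HSCR and WT proximal libraries, Cartpt had none relative to the neuronal genes, and both hold the full cAMP response element, TGACGTCA, at which CREB binds. RefSeq gave promoter windows (250 bases before to 50 after the gene start, GRCm38.p6, an older build than the mm39 of the count table) for 8 of the 9 genes. The element, searched as these 8 letters, which read the same on both strands, was found in 2 of the 8, against 588 of all 32851 promoter windows (1.79%). In the Sst promoter, chr16:23890795-23891094 on the minus strand, it began 48 bases before the gene start. In the Cartpt promoter, chr13:99900634-99900933 on the minus strand, it began 112 bases before the start. Both are written 5′ to 3′ with the element in capitals.
Sst: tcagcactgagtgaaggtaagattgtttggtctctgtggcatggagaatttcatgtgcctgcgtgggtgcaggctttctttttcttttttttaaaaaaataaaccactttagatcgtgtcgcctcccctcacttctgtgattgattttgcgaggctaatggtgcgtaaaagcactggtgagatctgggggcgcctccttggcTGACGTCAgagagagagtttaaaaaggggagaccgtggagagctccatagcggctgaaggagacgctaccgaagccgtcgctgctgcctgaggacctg
Cartpt: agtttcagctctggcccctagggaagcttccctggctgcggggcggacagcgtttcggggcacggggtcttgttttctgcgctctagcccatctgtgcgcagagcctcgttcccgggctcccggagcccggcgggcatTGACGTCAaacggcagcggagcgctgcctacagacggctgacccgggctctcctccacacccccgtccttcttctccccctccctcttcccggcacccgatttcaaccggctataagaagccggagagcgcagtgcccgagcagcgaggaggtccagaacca
The match is a description of these letters and was not tested against binding.

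Sst (ENSMUSG00000004366, mm39 chr16:23708323-23709708, minus strand) encodes somatostatin, an inhibitory peptide of enteric interneurons, of mucosal D cells and of other tissues. In the proximal colon it was at 155, 276, 679 and 734 CPM in WT libraries 1 to 4 and at 0.25, 42.6, 21.1 and 10.9 CPM in HSCR libraries 1 to 4. Every WT library was above every HSCR library, and the highest HSCR value was that of HSCR proximal 2, the library with the most epithelial RNA. The means were 461 ± 289 and 18.7 ± 18.1 CPM (SD, n = 4 each), so that the HSCR mean was 0.0406 of the WT mean. The log2 fold change was -4.68 (SE 1.22), with an unadjusted p of 0.00391 and an adjusted p of 0.649 by the quasi-likelihood test of edgeR, adjusted after Benjamini and Hochberg. The exact two-sided permutation p of the means was 0.0286, the smallest that 4 libraries against 4 can give. Of the 16664 genes tested in the proximal colon, 2.83% also had every HSCR library below every WT library. Without the library labelled HSCR proximal 1 the log2 fold change was -4.24 (SE 0.77). The list of 11 enteroendocrine markers, cells that can also make somatostatin, averaged -1.17 in HSCR proximal and -4.05 in WT proximal libraries (exact permutation p 0.200), with the highest value, 2.76, in HSCR proximal 2, and the part of these cells in the Sst levels was not tested. In bulk tissue, fewer neurons that make a peptide and less of its RNA in each neuron cannot be told apart.

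In the distal colon Sst was at 2.74, 2.83, 145 and 55.0 CPM in the WT libraries and at 2.52, 3.06, 1.67 and 0 CPM in the HSCR libraries. WT distal 1 and 2 lay beside the HSCR libraries, and only WT distal 3 and 4 stood above them. The log2 fold change was -4.88 (SE 1.66), with an unadjusted p of 0.0165 and an adjusted p of 1.00 (edgeR). The difference in mean log2 CPM came from replicates 3 and 4 (-9.16), since in replicates 1 and 2, whose WT libraries held less neuronal RNA, it was -0.0045. The size of the -9.16 depends on the prior count of 0.5. HSCR distal 4 had no count of Sst and entered at a log2 CPM of -6.12, beside 0.75 in HSCR distal 3. Within the WT colon, Sst was lower distally than proximally without overlap, with a log2 fold change of -3.14 (SE 1.21), an exact permutation p of 0.0286 and an adjusted p of 0.906 (edgeR). In that comparison 1.9% of 16566 genes were lower in every distal library.

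**Figure D1:**
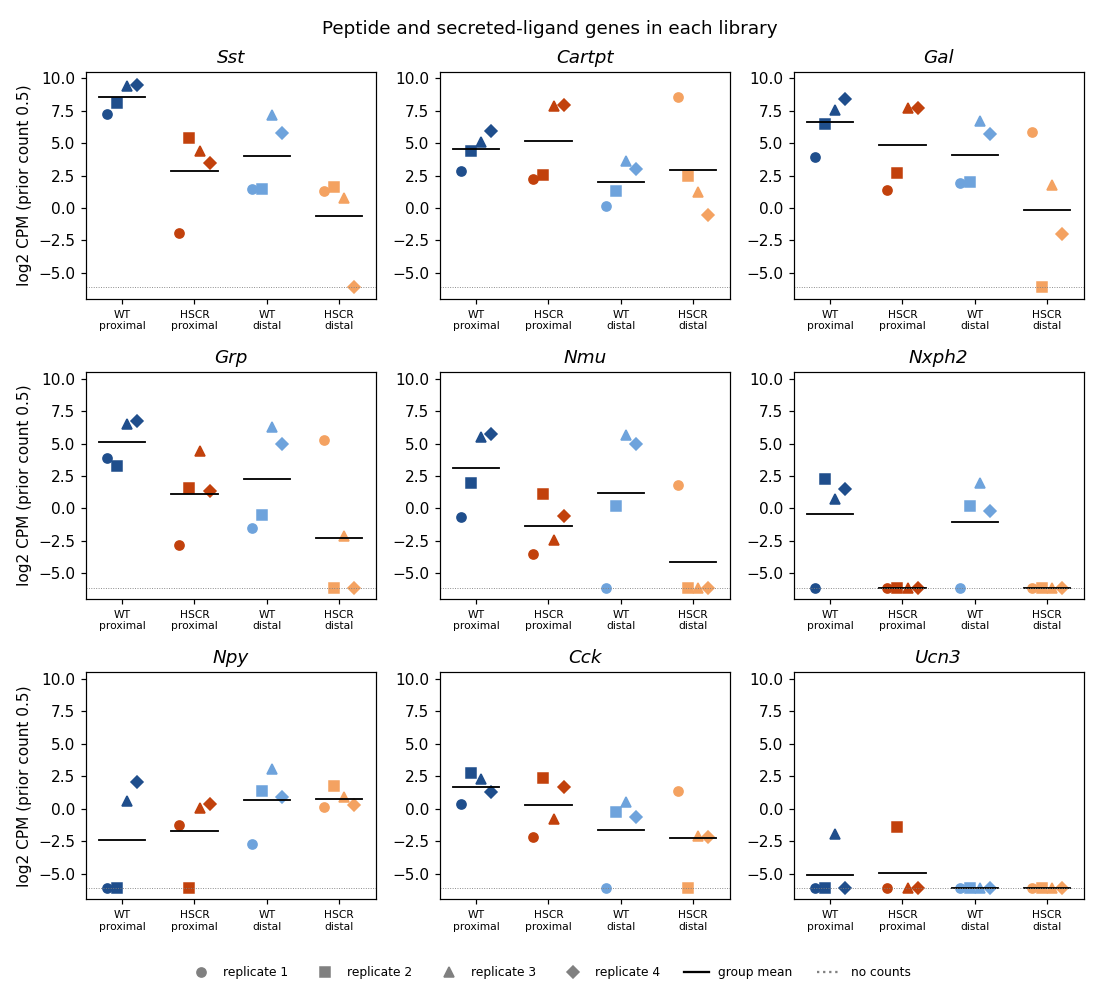
Log2 CPM (prior count 0.5) of the 9 genes in each of the 16 libraries, 1 panel a gene, with the 4 groups on the x axis, 1 symbol for each replicate number, a black bar for the group mean and a dotted line for a gene without counts. Sst in the 4 HSCR proximal libraries lies below all 4 WT proximal libraries, and the library labelled HSCR distal 1 (circle) lies above the other HSCR distal libraries for Cartpt, Gal, Grp, Nmu and Cck.

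Cartpt (ENSMUSG00000021647, mm39 chr13:100034997-100037599, minus strand), the precursor of the cocaine- and amphetamine-regulated transcript peptides of many myenteric neurons, did not follow Sst. It was at 7.31, 21.04, 34.0 and 61.5 CPM in WT proximal libraries 1 to 4 and at 4.60, 5.89, 234 and 242 CPM in HSCR proximal libraries 1 to 4. HSCR proximal 3 and 4 were thus above every WT library, and HSCR proximal 1 and 2 below every one. The log2 fold change was 1.95 (SE 1.24), with an adjusted p of 0.781 (edgeR), and was 0.43 with the library name series as a term and 0.71 with RUVr, which removes 4 factors estimated from the residuals. Distally Cartpt was at 1.10, 2.42, 12.0 and 7.96 CPM in the WT libraries and at 379, 5.55, 2.40 and 0.67 in the HSCR libraries. Its distal log2 fold change was 4.02 (SE 1.87, adjusted p 1.00, edgeR), 2.01 with the name series as a term, 0.86 with RUVr and -1.08 (SE 1.00) without the library labelled HSCR distal 1, so that its direction was not stable. In WT the distal level was lower, with a log2 fold change of -2.37 (SE 0.83), an unadjusted p of 0.0176 and an adjusted p of 0.906 (edgeR). Cartpt was the only one of the 9 genes with counts in all 16 libraries.

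Gal (ENSMUSG00000024907, mm39 chr19:3459915-3464544, minus strand) encodes galanin, a peptide of inhibitory motor neurons and interneurons. Its level was 15.1, 89.7, 193 and 338 CPM in the WT proximal libraries and 2.65, 6.51, 210 and 214 in the HSCR proximal libraries. HSCR proximal 3 and 4 lay inside the WT range and HSCR proximal 1 and 2 below it. The log2 fold change was -0.58 (SE 1.31, adjusted p 0.937, edgeR), and was -1.94 with the library name series as a term, -1.5 with RUVr and -0.15 without the library labelled HSCR proximal 1. Distally Gal was at 3.81, 4.07, 104 and 53.3 CPM in WT and at 57.6, 0, 3.45 and 0.23 in HSCR libraries. The highest HSCR value was again that of the library labelled HSCR distal 1, and without it the log2 fold change went from -1.47 (SE 1.83) to -5.16 (SE 1.92, adjusted p 0.832, edgeR).

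Grp (ENSMUSG00000024517) encodes gastrin-releasing peptide, the ligand of the bombesin receptor Grpr. In the proximal colon it was at 15.1, 9.84, 91.2 and 109 CPM in WT and at 0.12, 3.00, 21.2 and 2.47 in HSCR libraries. Only HSCR proximal 3 reached into the WT range. The log2 fold change was -3.10 (SE 1.33), with an unadjusted p of 0.0441 and an adjusted p of 0.747 (edgeR). Distally the WT libraries were at 0.33, 0.69, 75.5 and 30.5 CPM and the HSCR libraries at 37.6, 0, 0.22 and 0. With all 8 libraries the log2 fold change was -1.54 (SE 2.25), and without the library labelled HSCR distal 1 it was -8.52 (SE 2.51, adjusted p 0.813, edgeR).

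Nmu (ENSMUSG00000029236, mm39 chr5:76481342-76511635, minus strand) encodes neuromedin U, a peptide of intrinsic sensory neurons that also acts on immune cells of the gut wall. It was at 0.60, 3.94, 46.3 and 52.7 CPM in the WT proximal and at 0.07, 2.12, 0.17 and 0.64 in the HSCR proximal libraries. No HSCR proximal library exceeded 2.12 CPM, but WT proximal 1 lay among them. The log2 fold change was -5.19 (SE 1.54), with an unadjusted p of 0.00816 and an adjusted p of 0.691 (edgeR). In HSCR proximal 3 and 4, which held neuronal RNA at list means of 5.64 and 5.59, Nmu was thus at 0.17 and 0.64 CPM while Gal was at 210 and 214. Distally Nmu was at 0, 1.13, 50.4 and 30.7 CPM in WT and was found only in the library labelled HSCR distal 1, at 3.40 CPM, among the HSCR libraries, so that without it no HSCR distal library had a count. The distal log2 fold change was -4.62 (SE 2.43, adjusted p 1.00, edgeR), and without that library it was -12.65 (adjusted p 0.813, edgeR), a fitted value against a group at 0 that depends on the prior count.

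Nxph2 (ENSMUSG00000069132, mm39 chr2:23211258-23291985, plus strand) had counts in 3 of 4 WT libraries of each segment and in none of the 8 HSCR libraries. The WT proximal libraries held 0, 128, 69 and 64 counts (0, 4.72, 1.64 and 2.76 CPM), and the WT distal libraries 0, 38, 200 and 37 counts (0, 1.10, 3.95 and 0.87 CPM). The WT library without counts was number 1 in both segments, so that the groups overlapped at 0. Against a floor of 3 counts in each HSCR library, the WT mean was at least 26.3-fold higher in the proximal and at least 17.0-fold higher in the distal colon. Nxph2 was too low for the model in either segment, and the exact two-sided permutation p of the means was 0.143 in each.

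Npy, Cck and Ucn3 were low throughout. Npy (ENSMUSG00000029819, mm39 chr6:49799690-49806487, plus strand) encodes neuropeptide Y, of inhibitory motor neurons and of sympathetic fibres that enter from outside the gut. It ranged from 0 to 4.15 CPM in the WT proximal, from 0 to 1.25 in the HSCR proximal, from 0.13 to 8.52 in the WT distal and from 1.09 to 3.35 CPM in the HSCR distal libraries, ranges that overlapped in each segment. Its log2 fold changes were -1.09 (SE 1.75) proximally and -0.85 (SE 1.00) distally. Cck (ENSMUSG00000032532, mm39 chr9:121318890-121324760, minus strand) encodes cholecystokinin, a peptide of enteric neurons and of endocrine cells of the epithelium. It ranged from 1.28 to 6.82 CPM in the WT proximal, from 0.20 to 5.23 in the HSCR proximal, from 0 to 1.40 in the WT distal and from 0 to 2.60 in the HSCR distal libraries. Its highest HSCR value, 5.23 CPM, was in HSCR proximal 2, where the enteroendocrine marker list also averaged highest (2.76 against -0.25 or less in the other 15 libraries), and the part of those cells in the value was not tested. Ucn3 (ENSMUSG00000044988, mm39 chr13:3990688-3995349, minus strand), the precursor of the stress peptide urocortin 3, had 10 counts in WT proximal 3, 10 counts in HSCR proximal 2 and none in the other 14 libraries, so that no comparison could be made.

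Put on a per-length scale, as mean deposited FPKM (fragments scaled to gene length and library size), the order of the genes in WT proximal colon was Sst 632, Gal 199, Grp 37.6, Nmu 30.9, Cartpt 24.0, Cck 2.90, Npy 2.45, Nxph2 0.876 and Ucn3 0.039. In HSCR proximal colon Gal (134) and Cartpt (92.7) stood before Sst (25.7), Grp (4.42), Cck (1.74), Npy (1.16) and Nmu (0.901). The means of Gal and Cartpt came mainly from HSCR proximal 3 and 4. Both stood above Sst in HSCR proximal 1, 3 and 4. In HSCR proximal 2, Sst (59.2) stood above Gal (8.26) and Cartpt (4.61). In WT distal colon the order was Sst 70.0, Gal 51.3, Nmu 24.3, Grp 17.7, Npy 5.68, Cartpt 4.50, Nxph2 0.564 and Cck 0.535. In HSCR distal colon the means of Cartpt (73.8), Gal (18.9), Grp (6.22), Nmu (0.999) and Cck (0.561) came mainly from the library labelled HSCR distal 1, and Npy was at 3.24 and Sst at 2.48. Neighbours in these orders such as Grp, Nmu and Cartpt in WT proximal colon had overlapping ranges over libraries and were not told apart.

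**Figure D2:**
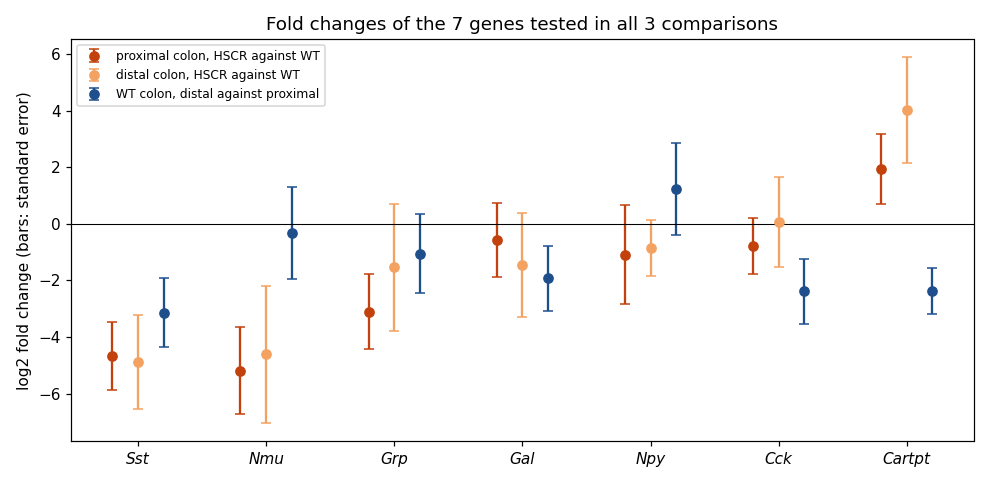
Log2 fold change with its standard error for the 7 genes tested in each of the 3 comparisons, HSCR against WT in each segment and WT distal against WT proximal. Sst, Nmu, Grp and Gal are below 0 in all 3. Cartpt is above 0 in both HSCR comparisons (1.95 and 4.02), but at -1.08 distally without the library labelled HSCR distal 1.

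Counted together in the proximal colon, 7 of the 9 genes could be tested, since filterByExpr left out Nxph2 and Ucn3. None was changed by the set limits of an adjusted p under 0.05 and a log2 fold change beyond 1, and neither was any other gene of the table (0.0% of 16664 genes by edgeR's quasi-likelihood test). Among the 7, 3 genes, Sst, Nmu and Grp, were lower at an unadjusted p under 0.05, against 6.62% of all genes in either direction. The 19 pan-neuronal genes were all lower too, with a median log2 fold change of -1.97, and 7 of them had an unadjusted p under 0.05 (edgeR). Of the 7 tested here, 6 had a negative and 1, Cartpt, a positive log2 fold change, and their median was -1.09 against 0.04 over all genes tested. DESeq2 in place of edgeR called 2 of them lower, Sst (adjusted p 0.000851) and Nmu (adjusted p 0.00448), among 30 higher and 151 lower genes of the table.

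Distally 7 genes were tested and none was changed (0.0% of 17059 genes, edgeR). Sst was the only one with an unadjusted p under 0.05, against 2.64% of all genes. Of the 19 pan-neuronal genes 17 were lower distally, with a median log2 fold change of -1.73. Among the 7 there were 5 negative and 2 positive log2 fold changes, with a median of -1.47 against 0.04 over all genes. DESeq2 called none of them changed. The difference of the genotype effect between the segments was tested over all 16 libraries, where again no gene was changed (0.0% of 18619 genes, edgeR), 1.44% of genes had an unadjusted p under 0.05 and none of the 9 did. The smallest p among them was that of Cartpt, 0.367, at a difference of 2.07 (SE 2.22) on the log2 scale, and Nxph2, without a count in 8 libraries, could not be fitted. In WT colon, distal against proximal, 8 genes were tested and none was changed, against 0.0181% of the 16566 genes. Sst and Cartpt were lower at an unadjusted p under 0.05, against 5.23% of all genes, and 7 of the 8 log2 fold changes were negative, with Npy at 1.24 (SE 1.64) as the exception. All 19 pan-neuronal genes were lower in WT distal colon as well, with a median of -1.05.

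Since the libraries differed so much in neuronal RNA, each gene was also set against the mean log2 CPM of the 19 pan-neuronal genes of the same library. Cartpt was then the gene whose HSCR and WT libraries separated in both segments. In the proximal colon it was at 0.15 to 2.33 log2 units from the pan-neuronal mean in the HSCR libraries and at -2.28 to -1.22 in the WT libraries. The distal values were -0.03 to 2.94 in HSCR and -3.11 to -1.69 in WT. The difference was 3.10 proximally and 3.60 distally, in each with an exact two-sided permutation p of 0.0286, the smallest possible, in a set of 7 genes tested a segment. Within replicates 1 and 2, whose library names form a series of their own, the difference was 2.18 proximally and 3.86 distally, and within replicates 3 and 4 it was 4.03 and 3.33. Replicates 3 and 4 mix the name prefixes CM (WT proximal 3 and 4, HSCR proximal 4) and LC (the others), which this split and the name series term do not separate. Without the libraries labelled HSCR proximal 1 and HSCR distal 1 the differences were 3.51 and 2.94, at the same permutation p of 0.0286. Among all genes tested, 7.83% proximally and 0.903% distally were likewise higher in every HSCR library relative to the pan-neuronal genes, a measure on which any gene not made by neurons is moved up where neuronal RNA is low. In both segments at once this held for 27 of 16210 genes (0.167%). The mean of the 19 pan-neuronal genes is itself the reference, so that these genes could not all rise together. Of these genes, Nefm and Ret were higher in every HSCR library in the proximal colon and none was in the distal colon. Among the 17 peptide processing genes Cadps and Pam were likewise higher in the proximal colon, and again none was in the distal colon. The glial list, of cells of the same plexus, differed between HSCR and WT by -1.78 in the proximal (exact permutation p 0.0286) and -1.53 in the distal colon (exact permutation p 0.114).

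**Figure D3:**
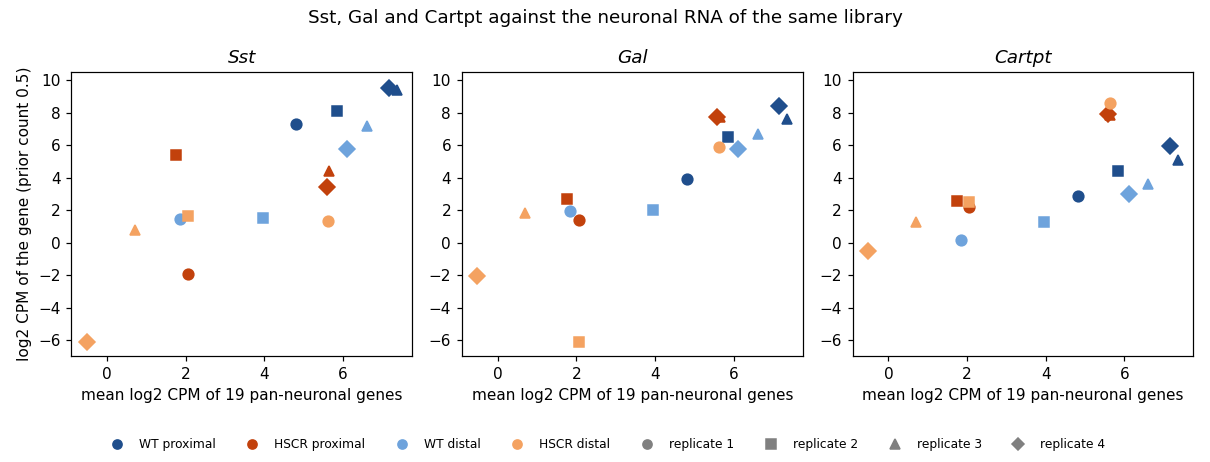
Log2 CPM of Sst, Gal and Cartpt (y axes) against the mean log2 CPM of the 19 pan-neuronal genes (x axis), 1 point a library, colours for the 4 groups and symbols for the replicate numbers. At a pan-neuronal mean near 5.6, HSCR proximal 3 and 4 have Cartpt at 234 and 242 CPM and Sst at 21.1 and 10.9 CPM, and WT proximal 2, at 5.85, has Cartpt at 21.04 and Sst at 276 CPM.

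A set of 3 libraries with like neuronal RNA shows the values side by side. WT proximal 2, at a pan-neuronal mean of 5.85, held 7494 counts of Sst, 2435 of Gal and 571 of Cartpt. HSCR proximal 3, at 5.64, held 1147 of Sst, 11435 of Gal and 12738 of Cartpt, and HSCR proximal 4, at 5.59, held 304, 5968 and 6753. The count ratio of Cartpt to Gal, free of library size, lay between 0.176 and 0.485 in WT proximal and between 0.904 and 1.74 in HSCR proximal libraries. Distally it was 0.116 to 0.596 in WT libraries, and in HSCR libraries 6.58, at least 49.7 (no count of Gal), 0.695 and 2.90, so that each HSCR library was above each WT library in both segments. The ratio of Cartpt to Sst was 0.0471 to 0.0838 in WT proximal libraries and 18.4, 0.138, 11.1 and 22.2 in HSCR proximal libraries 1 to 4. Distally that ratio was 0.402, 0.857, 0.0827 and 0.145 in WT and 151, 1.82, 1.44 and at least 9.67 in HSCR libraries. The ratio of Gal to Sst did not separate the genotypes, at 0.0971 to 0.460 in WT proximal and 10.6, 0.153, 9.97 and 19.6 in HSCR proximal libraries, and distally at 0.716 to 1.44 in WT and 22.9, 0, 2.06 and at least 3.33 in HSCR libraries. The 3 ratios and the 3 libraries were picked after their values were seen and were not tested.

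No other gene of the 9 separated in this measure with all libraries in. Sst relative to the pan-neuronal genes was at 2.04 to 2.47 in the WT proximal libraries, the tightest WT range of the 7 genes, and at -3.98 to 3.67 in the HSCR proximal libraries. Its difference was -3.21 (exact permutation p 0.143), and without HSCR proximal 2 it was -4.74 (exact permutation p 0.0286). HSCR proximal 2, at 3.67, was the only HSCR proximal library not below the WT range. Leaving it out thus fixed the separation in advance, and that p is no support. Distally the difference of Sst was -1.92 (exact permutation p 0.257). The relative differences of Gal were 0.83 proximally and -1.56 distally, those of Grp -1.47 and -1.90, and those of Nmu -1.96 and -2.65, with overlap of the groups in each. In this measure a library without a count takes the floor set by the prior count minus its pan-neuronal mean. Among others this held for Nmu in 3 and Grp in 2 HSCR distal libraries, and for Npy in 2 WT proximal libraries. Such differences depend on the prior count and on the neuronal RNA. Npy, which hardly followed the neuronal RNA, was at 3.20 and 2.78 (distally 4.203 without the library labelled HSCR distal 1, exact permutation p 0.0286), and Cck at 1.13 and 2.04. For Npy the library left out was the only HSCR distal library not above the WT range, so that separation too was fixed by the choice.

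**Figure D4:**
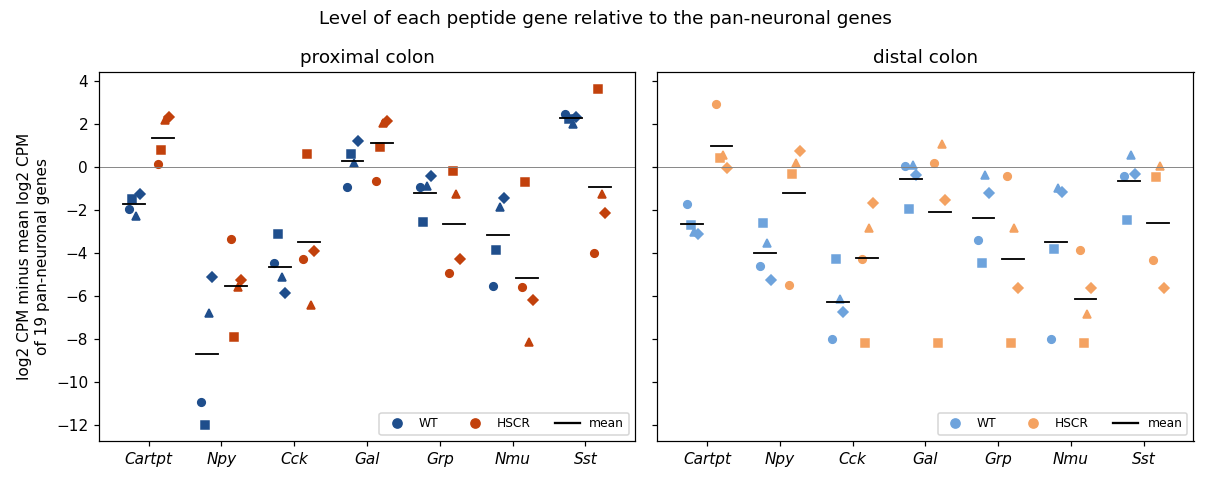
Log2 CPM of 7 genes minus the mean log2 CPM of the 19 pan-neuronal genes, 1 symbol a library, WT beside HSCR, with the group mean as a black bar, in the proximal (left) and distal colon (right). Cartpt in the HSCR libraries (0.15 to 2.33 and -0.03 to 2.94) lies above the WT libraries (-2.28 to -1.22 and -3.11 to -1.69) in both panels, and the other genes overlap.

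Receptors of these ligands, a list of 24 genes, mostly had negative log2 fold changes as well. In the proximal colon 17 were tested, with 16 negative log2 fold changes and none changed. Their median was -1.34, against 0.04 over all genes and -1.97 over the 19 pan-neuronal genes. At an unadjusted p under 0.05 there was 1 gene of 17, a share no higher than the 6.62% of all genes. That gene was Galr1, a galanin receptor of enteric neurons, at 5.37 ± 5.15 CPM in WT and 0.0915 ± 0.138 in HSCR libraries (SD, n = 4), with a log2 fold change of -5.93 (SE 1.52, adjusted p 0.649, edgeR). Nrxn3, a presynaptic neurexin, was at -2.71 (SE 1.23). In the distal colon 14 of 16 receptors had negative values, and 2 had an unadjusted p under 0.05, against 2.64% of all genes. The receptor median was -1.25, against 0.04 over all genes and -1.73 over the 19 pan-neuronal genes. Sstr1, a somatostatin receptor, was at -4.12 (SE 1.78, unadjusted p 0.0462), and Nrxn3 was at -2.92 (SE 1.42). In WT colon 18 of 19 receptors had negative values, distal against proximal, with no unadjusted p under 0.05, led by Cckar, the cholecystokinin A receptor, at -1.84 (SE 0.87), Npy4r at -0.91 (SE 0.59) and Sstr3 at -2.17 (SE 1.64).

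The 17 genes that cut, carry and release peptides gave a like picture, and none of them was changed either. In the proximal colon 13 of 17 had negative log2 fold changes, and 2 had an unadjusted p under 0.05, against 6.62% of all genes. The median was -1.25, against 0.04 over all genes and -1.97 over the 19 pan-neuronal genes. Pcsk1n, an inhibitor of the prohormone convertase PC1/3, was at 304 ± 182 CPM in WT and 59.1 ± 49.9 in HSCR, a log2 fold change of -2.39 (SE 0.90, unadjusted p 0.0265, adjusted p 0.747, edgeR). Scg3, a granin of dense-core vesicles, was at -2.32 (SE 0.96, unadjusted p 0.0392), and Pcsk2, a prohormone convertase, at -2.46 (SE 1.2). In the distal colon 12 of 17 were negative, with a median of -1.53, against -1.73 over the 19 pan-neuronal genes. Pcsk2 at -3.92 (SE 1.65) and Ptprn2, a vesicle membrane protein, at -3.02 (SE 1.32) were the 2 with an unadjusted p under 0.05, against 2.64% of all genes. Dpp4, a protease of cell surfaces that cuts neuropeptide Y, was at 1.16 (SE 0.53) there. Within WT colon 15 of 17 had negative values, distal against proximal, with Scg3 at -1.46 (SE 0.76), Pcsk1n at -1.43 (SE 0.88) and Vgf, the precursor of further secreted peptides, at -2.30 (SE 1.43).

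Over the 16 libraries, which share their differences in neuronal RNA and segment, the genes differed in what they tracked. Pearson's r of log2 CPM with the pan-neuronal mean was 0.90 for Grp, 0.85 for Nmu, 0.83 for Gal, 0.81 for Sst, 0.73 for Cartpt, 0.66 for Nxph2, 0.62 for Cck and 0.17 for Npy. The genes most like Grp were Lrrc8b (0.970), Tac1, the substance P precursor (0.963), and Tm4sf4 (0.957). Those most like Gal were Svop (0.969), Ap3b2 (0.961) and Disp2 (0.957), and those most like Nmu were Cntn2 (0.937), Gm2990 (0.934) and Atp2b2 (0.927). Sst was most like Kif21a (0.921), Pcsk1n (0.916) and the homeobox gene Hoxa4 (0.907). For Cck the nearest were Prr36 (0.920), C2cd4c (0.913) and B4galnt4 (0.904), and for Nxph2 they were Prmt8 (0.936), Rims4 (0.904) and Slc17a6, the vesicular glutamate transporter (0.902). Nxph2 had no count in 10 of the 16 libraries, so that its r values rest in part on libraries at the floor. Prmt8 and Slc17a6 were low as well, at mean log2 CPM of -2.14 and -2.66. Cartpt had weaker partners, Ptpro (0.883), Tspan17 (0.859) and Haghl (0.844), and Npy was nearest to an unnamed gene (ENSMUSG00000120325, 0.884), Tspyl5 (0.869) and Gm17936 (0.863). These correlations describe 16 libraries and carry no test.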

How the data were processed

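RNA of the LMMP was extracted with a column kit, and poly-A libraries were sequenced. Per the labels and the Methods, the authors aligned reads to mm39 (HISAT2 2.2.1) and assigned them to GENCODE genes (featureCounts 2.0.6). The deposited counts were whole reads a gene without normalization. The FPKM values deposited by the authors were used only to order genes within a group, and the authors' own fold changes and p-values were not used. The labels describe both stranded and unstranded library preparation, so overlapping antisense reads cannot be told apart.

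Totals were 21384372 to 45831881 counts a library, with 4.32% to 49.8% mitochondrial counts, and the biological coefficient of variation between libraries was 0.700 to 0.794. Mitochondrial shares were 49.8, 17.8, 7.31 and 34.6% in WT proximal and 5.56, 6.68, 6.34 and 20.1% in HSCR proximal libraries 1 to 4, so that the genotypes differed in it there. All genes were tested with edgeR 4.0.16 (glmQLFTest after filterByExpr and TMM normalization, in R 4.3.3), with Benjamini-Hochberg adjustment over all genes tested. CPM values used TMM-scaled library sizes. The level relative to neurons was the log2 CPM (prior count 0.5) minus the mean over 19 pan-neuronal genes, compared by exact two-sided permutation of library labels. The labels call the libraries separate samples but do not say how many mice each came from, and the p-values measure the spread between these libraries. Alternatives were DESeq2 1.42.0, the likelihood ratio test with and without RUVr (4 factors), other filters, normalizations and terms, and leaving out libraries. The edgeR quasi-likelihood test was tried on simulated data for the proximal comparison only, and the permutation test was not. The 9 genes, the lists and the tests were chosen with earlier results of these data known. Named besides the 9 were the list genes with the smallest p (3 a list and comparison) and the 3 genes most correlated with each. For the difference of the genotype effect between the segments no list gene is named. Of 21 receptors tested there, 1 positive and 1 negative difference had an unadjusted p under 0.05 (edgeR), against 1.44% of all genes. None was changed. An item among the receptors is not reported here by name. The Hox genes were picked after the values were seen. Summaries and figures were made with scipy 1.17.1, numpy 2.4.6, matplotlib 3.10.9 and pandas 2.3.3 under Python 3.11.15, and promoters came from RefSeq (GRCm38.p6).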

Additional observations from a re-analysis of the deposited data

Results flagged for a closer look

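In 8 of 36 groups of 4 libraries 1 library stood apart from the other 3 by Dixon's test. Its limit flags about 1 group in 20 only for independent, normally distributed values. These are CPM values with many zeros in groups that share libraries, so that rate does not apply here. The library labelled HSCR distal 1 accounted for 5 of them. It held Cartpt at 379 CPM against 0.67 to 5.55 in the other HSCR distal libraries, Gal at 57.6 against 0 to 3.45, Grp at 37.6 against 0 to 0.22, Nmu at 3.40 against 0 in each, and Cck at 2.60 against 0 to 0.22. The same library had the highest pan-neuronal mean of its group, 5.63 against 2.06 or less, and the lowest Hoxd13 of its group, 0.629 CPM against 14.1 to 210. Grp in HSCR proximal 3, at 21.2 CPM against 0.12 to 3.00, was the remaining expressed gene. Ucn3 was set apart in WT proximal 3, at 0.237 CPM, and in HSCR proximal 2, at 0.366 CPM, only because the other libraries of each group had no count, and both values stand for 10 counts.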

How the results depend on the processing

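Of 581 values for single genes under alternatives, 536 kept their direction and side of the threshold, 19 passed it where the main value had not, and 26 reversed. Since none of the 9 genes passed in the main edgeR tests, these counts say little of stability. The count of changed genes among the 9 was 0 in each comparison. It was 2 with DESeq2 in the proximal colon (Sst and Nmu), 1 with the likelihood ratio test (Sst, adjusted p 0.0209) and 4 with RUVr (Sst, Nmu, Grp and Gal). RUVr gave 3 in the distal colon (Sst, Grp and Gal) and 6 between the WT segments (Sst, Gal, Grp, Cartpt, Cck and Npy), in a table where it called 1479 genes higher and 1190 lower proximally. All other settings gave 0. The count of genes that separated relative to the pan-neuronal genes was 1 in each segment, between 1 and 2 when libraries were left out, 2 proximally without HSCR proximal 2 (Sst added) and 2 distally without HSCR distal 1 (Npy added), as also without HSCR proximal 1 and HSCR distal 1 together. HSCR proximal 2 for Sst and HSCR distal 1 for Npy were each the only HSCR library that kept the groups from separating. The added genes were thus fixed by which library was left out. Nxph2 had a CPM difference with an exact permutation p of 0.0286 without WT proximal 1 (-3.04, over a range of -3.04 to -1.47) and without WT distal 1 (-1.97, over -1.97 to -0.655). Each was the only WT library of its segment without a count of Nxph2, and no HSCR library had a count. These p-values were thus fixed by which library was left out and are no support.

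The reversals were of values that did not pass the test. Npy in the proximal colon was 1.54 with RUVr and 0.63 with the library name series as a term, and ran from -1.57 to 0.38 when libraries were left out. Gal there ran from -1.16 to 0.10. In the distal colon Cck was -0.51 with RUVr, -0.29 with the name series and -2.35 without both libraries, and ran from -2.35 to 0.66, Cartpt was -1.08 without both and ran from -1.08 to 4.66, and Npy ran from -1.30 to 0.30. The Cartpt interaction was -0.56 with RUVr and -3.46 without both, and ran from -3.06 to 2.68. Between WT segments Nxph2 was 0.78 with RUVr and ran from -1.78 to 0.020, and Nmu ran from -1.30 to 0.29. Relative to the pan-neuronal genes, Cck ran proximally from -0.25 to 2.11 and Gal distally from -2.62 to 0.46. The causes were not tested, apart from the libraries left out. The labels do not say what the replicate numbers share. The names of replicates 1 and 2, but not of 3 and 4, repeat a number across the groups. The samples were not treated as paired, since the correlations of same-numbered libraries ran from -0.214 to 0.424 and no pair of groups had all 4 above 0.1. Between WT proximal and WT distal they were 0.417, 0.0959, 0.275 and 0.165 for replicates 1 to 4. A pairing of the WT segments was thus not settled, and their main tests ignore it. With the replicate block the count of changed genes stayed 0. Proximally Cartpt was then 0.57, Gal -1.7 and Npy 0.037, and distally Cck was -1.84 and Cartpt -0.20. Ucn3, at 10 counts or fewer a library, was too low to test.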
